A study of Mus musculus with 8 samples.

Results

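The S100 proteins and annexins described here are 10 genes, S100a4, S100a6, S100a10, S100a11, S100a13, S100a14, S100a16, Anxa1, Anxa2 and Anxa3. They were chosen by name, by their symbol in the deposited table, out of 24909 entries in all. The choice was made with earlier results of these data known, so counts of calls among them are descriptions only. The messenger RNA came from ASZ001 cells, a line of mouse basal cell carcinoma, carrying a doxycycline-inducible vector. In the c-Fos groups the vector held c-FOS, a subunit of the transcription factor AP-1, and in the fourth group it was empty. All cells had doxycycline for 24 h. The c-Fos cells were then treated for 6 h with afatinib at 5 µM, which blocks the EGFR family of receptor kinases, with UO126 at 10 µM, which blocks the kinases MEK1 and MEK2, or with the vehicle DMSO. Each of the 4 groups had 2 libraries, and no vehicle is named for the empty vector. Nothing in the labels says that replicates were grown as separate cultures, so the p-values reflect the spread of these 8 libraries alone, and that spread may be technical.

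S100 proteins are small calcium-binding proteins of the EF-hand type that mostly work as dimers and change the activity of the proteins they bind. Annexins bind acidic phospholipids of membranes in the presence of calcium, and some of them carry an S100 dimer as a partner: S100A10 with annexin A2, and S100A11 with annexin A1. In epidermis several S100 genes lie in the epidermal differentiation complex, beside genes for proteins of the cornified envelope, and their levels change with keratinocyte differentiation and injury.

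The libraries held between 17901974 and 23126048 counts. Fos, the induced gene, had between 18209 and 23573.5 counts in the 6 c-Fos libraries, against 937.5 and 1040.5 counts with the empty vector. All 7 keratinocyte markers looked at (Krt5, Krt14, Trp63, Cdh1, Epcam, Dsp and Itgb4) were expressed, with a summed level between 17344 and 21333 CPM, which are counts scaled to a common library size. Single markers moved with the groups. With c-Fos and DMSO over the empty vector Krt14 (log2 0.48), Epcam (0.79) and Itgb4 (0.70) were higher and Trp63 (-0.75) lower. Against DMSO, afatinib lowered Krt5 (-0.23), Trp63 (-0.37), Dsp (-0.43) and Itgb4 (-0.64), changes of the size given below for the S100 and annexin genes, and UO126 lowered Epcam (-0.24), Dsp (-0.47) and Itgb4 (-0.65) and raised Krt14 (0.27). The part of these shifts in the results was not tested. The UO126 replicates were further apart than those of other groups by a chi-square per degree of freedom over genes. It was 25.9, against 9.37 for afatinib, 8.69 for DMSO and 4.95 for the empty vector. This measure weighs abundant entries most. The ribosomal entry Rn45s held 1.62 and 3.55% of counts with UO126, 3.87 and 2.57% with afatinib, 3.45 and 2.19% with DMSO, and 4.08 and 3.34% with the empty vector. Its part in the chi-square was not tested. Of the 10 genes, 9 passed the filter on low counts and were tested, each with at least 42.5 counts in every library. S100a13, which encodes a protein that takes part in the release of the growth factor FGF1, had between 1.5 and 10.5 counts per library and was not tested. Such a low count in this table does not show that a transcript was missing, since Hmgcs1, a gene of sterol synthesis, is listed at 0 in all 8 libraries. In bulk RNA, fewer cells that express a gene and less RNA per cell cannot be told apart.

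All 9 genes tested were called higher with c-Fos and DMSO than with the empty vector, and 0 lower. As no vehicle is named for the empty vector, the design does not separate c-Fos from the vehicle in this comparison. At an unadjusted p under 0.05 the counts were again 9 and 0, as they were by the DESeq2 Wald test. Of all 12879 genes tested, 21.5% were called higher in this comparison and 20.7% lower (quasi-likelihood test of edgeR, with an adjusted p under 0.05 after Benjamini-Hochberg). The median log2 fold change was 0.80 for the 9 genes and -0.01 for all genes tested. The summed level of all 10 genes was 5235 ± 182 CPM with c-Fos and DMSO and 2744 ± 61.7 CPM with the empty vector (SD, n = 2 each), of which the S100 genes made up 2400 ± 110 CPM and 944 ± 34.6 CPM. The S100 genes covered a wide span of folds, and the 3 annexins a narrow one.

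**Figure D1:**
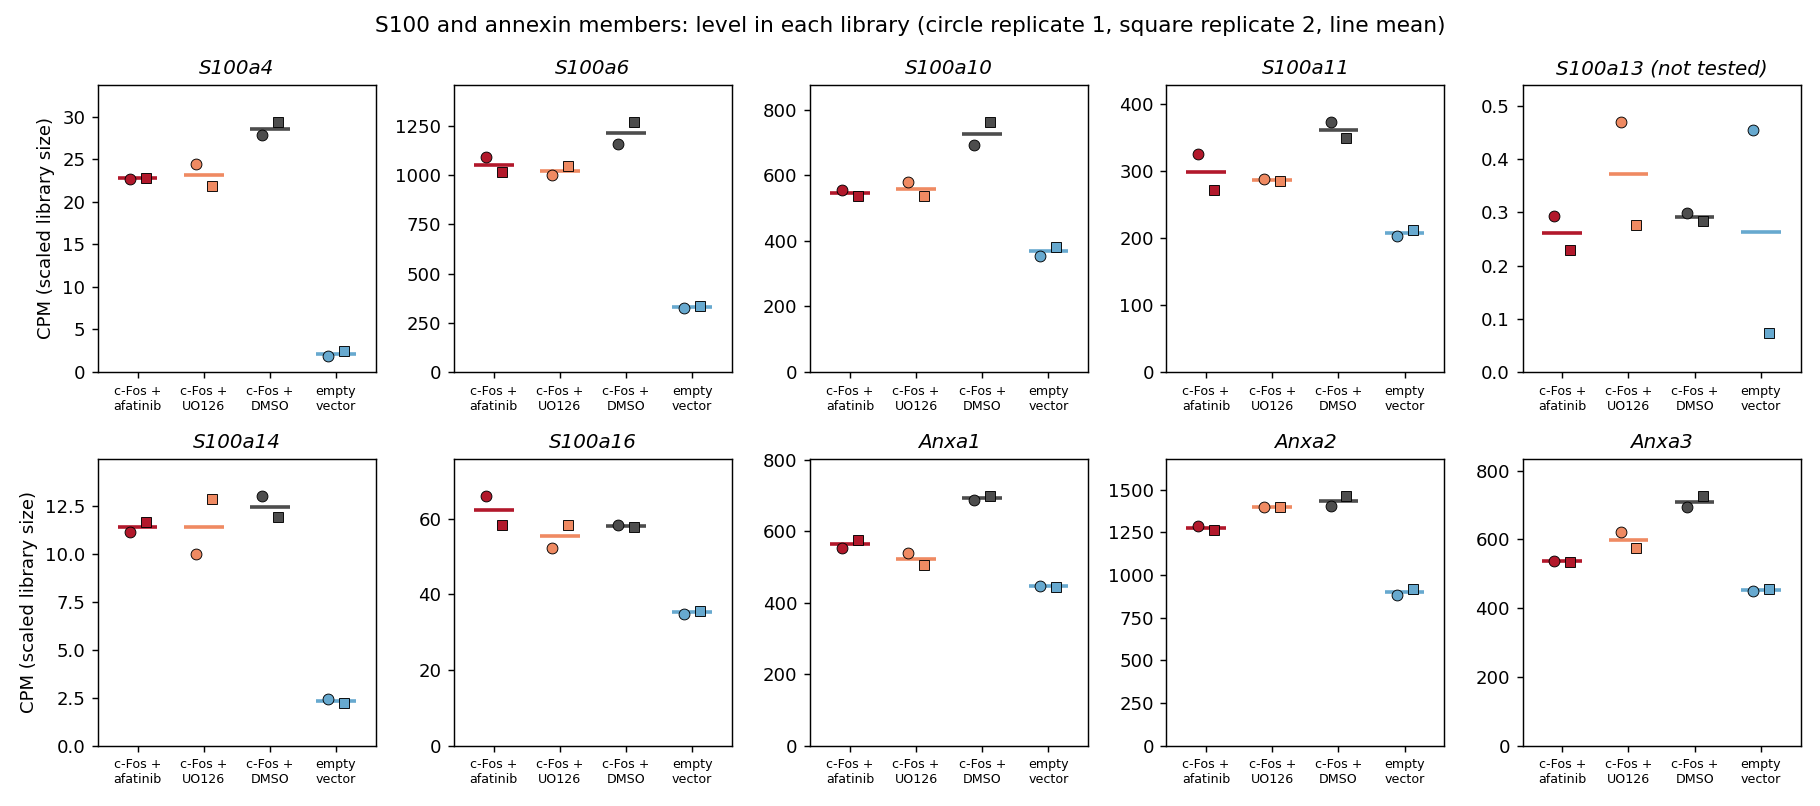
Level of each of the 10 genes in CPM (y axes start at 0) in the 8 libraries, with circles for replicate 1, squares for replicate 2 and lines for the mean of a group. In each of the 9 genes tested, both libraries with c-Fos and DMSO lie above both libraries with the empty vector, while S100a13 stays under 0.5 CPM.

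S100a4 encodes a protein that binds non-muscle myosin IIA and is known for its part in cell migration. It stood at 22.7 and 22.8 CPM with afatinib, 24.4 and 21.8 CPM with UO126, 27.8 and 29.3 CPM with DMSO, and 1.84 and 2.48 CPM with the empty vector. The c-Fos libraries were all about an order of magnitude above those with the empty vector, which held 42.5 and 51 counts of the gene. The rise with c-Fos and DMSO over the empty vector was 13.4-fold, a log2 fold change of 3.74 ± 0.14 (SE, adjusted p = 1.9e-10). That log2 fold change was above those of 99.6% of the genes tested.

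S100a14 encodes an epithelial S100 protein. Its values were 11.2 and 11.7 CPM with afatinib, 10.0 and 12.9 CPM with UO126, 13.03 and 11.9 CPM with DMSO, and 2.45 and 2.23 CPM with the empty vector. All c-Fos libraries were well above the empty vector ones and overlapped in part with each other. The change with c-Fos and DMSO was 5.35-fold (log2 2.42 ± 0.16, adjusted p = 7.2e-08).

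S100a6 encodes calcyclin, named for its link to the cell cycle, which binds the ubiquitin-ligase adaptor CacyBP. It was measured at 1091 and 1018 CPM with afatinib, 999 and 1047 CPM with UO126, 1157 and 1268 CPM with DMSO, and 323 and 335 CPM with the empty vector. Among the 10 genes it combined a high level with a large change, 3.69-fold with c-Fos and DMSO (log2 1.88 ± 0.067, adjusted p = 1.7e-10).

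S100a10 encodes the subunit that does not bind calcium and pairs with annexin A2 at the cell surface, where the complex binds plasminogen. It was at 555 and 537 CPM with afatinib, 580 and 538 CPM with UO126, 692 and 761 CPM with DMSO, and 354 and 382 CPM with the empty vector. The 4 libraries with an inhibitor lay between the DMSO and the empty vector libraries. S100a10 changed 1.98-fold with c-Fos and DMSO (log2 0.98 ± 0.068, adjusted p = 8.4e-08).

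S100a11 encodes the partner of annexin A1, a protein that is also crosslinked into the cornified envelope. The gene stood at 325 and 272 CPM with afatinib, 288 and 285 CPM with UO126, 373 and 349 CPM with DMSO, and 203 and 212 CPM with the empty vector. The groups with c-Fos and with the empty vector did not overlap, and the change was 1.74-fold (log2 0.80 ± 0.078, adjusted p = 2.8e-06). RefSeq lists a pseudogene, S100a11-ps, whose reads may be shared with it, so the level of S100a11 is uncertain.

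S100a16, a widely expressed family member, was at 66.0 and 58.4 CPM with afatinib, 52.4 and 58.3 CPM with UO126, 58.4 and 57.9 CPM with DMSO, and 35.0 and 35.6 CPM with the empty vector. The UO126 and DMSO libraries overlapped, both afatinib libraries lay above the DMSO ones, replicate 2 only just, and no c-Fos library overlapped with the empty vector. The change with DMSO was 1.65-fold (log2 0.72 ± 0.082, adjusted p = 1.1e-05).

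The 3 annexin genes rose by similar amounts. Anxa1 encodes a substrate of the EGF receptor kinase that also acts outside the cell through formyl peptide receptors. It stood at 552 and 576 CPM with afatinib, 540 and 505 CPM with UO126, 686 and 698 CPM with DMSO, and 447 and 445 CPM with the empty vector, a rise with DMSO of 1.55-fold (log2 0.63 ± 0.059, adjusted p = 1.6e-06). Anxa2, the partner of S100a10, was at 1287 and 1261 CPM with afatinib, 1396 and 1397 CPM with UO126, 1405 and 1462 CPM with DMSO, and 882 and 917 CPM with the empty vector. Its rise with DMSO was 1.59-fold (log2 0.67 ± 0.056, adjusted p = 5.3e-07). Anxa3, another membrane-binding member of the family, was at 538 and 534 CPM with afatinib, 622 and 574 CPM with UO126, 694 and 726 CPM with DMSO, and 451 and 457 CPM with the empty vector, a rise with DMSO of 1.56-fold (log2 0.64 ± 0.060, adjusted p = 1.7e-06). In none of these annexins did a c-Fos library overlap with the empty vector. The 95% intervals of the 3 log2 fold changes overlapped, from 0.51 to 0.76 for Anxa1, 0.55 to 0.79 for Anxa2 and 0.51 to 0.77 for Anxa3.

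Per length of transcript, S100a6 had the highest level with c-Fos and DMSO, 1698 ± 110 CPM per kb, followed by S100a10 at 1127 ± 75.2 CPM per kb and Anxa2 at 1055 ± 29.8 CPM per kb (SD, n = 2 each). With the empty vector the order differed: Anxa2 was first at 662 ± 18.0 CPM per kb, S100a10 was at 570 ± 30.3 CPM per kb and S100a6 at 461 ± 11.9 CPM per kb. S100a4 and S100a14, with the largest folds, were at 57.9 ± 2.1 and 11.6 ± 0.73 CPM per kb with c-Fos and DMSO, far below the 6 abundant genes. Levels per kb use the transcript length that the table gives for each entry.

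**Figure D2:**
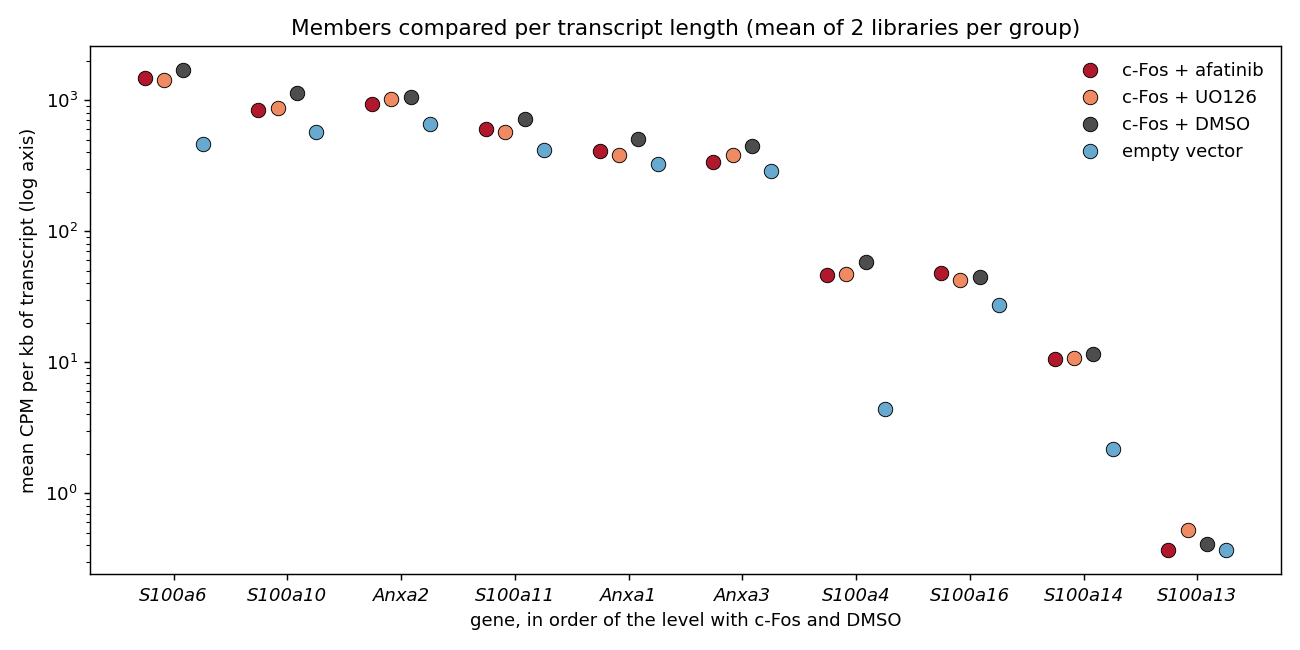
Mean level per kb of transcript (log axis) of the 10 genes in the 4 groups, each point the mean of 2 libraries, in order of the level with c-Fos and DMSO. S100a6, S100a10, Anxa2, S100a11, Anxa1 and Anxa3 form an abundant set, and S100a4, S100a16, S100a14 and S100a13 lie below it.

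Of the 7 S100 genes described here, all lie on chromosome 3 in RefSeq, in 2 blocks, whereas Anxa1, Anxa2 and Anxa3 are on chromosomes 19, 9 and 5. The order of protein-coding genes in the larger block is S100a1, S100a13, S100a14, S100a16, S100a3, S100a2, S100a4, S100a5, S100a6, S100a7a, S100a8 and S100a9. Genes with large rises lay beside genes with almost no counts: S100a5, between S100a4 and S100a6, had at most 2.5 counts in any library, and S100a8 and S100a9 had at most 1.5 and 0. S100a2 and S100a1 had at most 9 and 4.5 counts. S100a13 and S100a1 overlap by 98 bases at their starts on opposite strands in RefSeq. The library kit does not mark strand, so reads within that stretch cannot be assigned to 1 of the 2 genes. In the other block S100a11 and S100a10 are adjacent protein-coding genes. Anxa2 overlaps the microRNA gene Mir3109 in RefSeq.

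Promoter windows, from 250 bases before to 50 bases after an annotated start, were at hand for 7 of the 10 genes (RefSeq, build GRCm38.p6) and were searched for the AP-1 motif TGANTCA, which reads the same on both strands. Of these genes 3 held a match, S100a11, S100a16 and Anxa2, against 8.97% of the 27025 genes of the same table. Of 17 further listed genes with a window, S100pbp included, 1 held a match, Anxa10, which had 0 counts in every library. S100a4, S100a6, S100a13 and Anxa1 had no match, so genes without one included both the largest rise, S100a4, and the smallest, Anxa1. The 4 windows below show 2 genes with a match, S100a11 and Anxa2, and 2 without, S100a4 and S100a6. They run 5′ to 3′ on the strand of the gene, with matches in capitals.
S100a4, chr3:90603520-90603819, plus strand: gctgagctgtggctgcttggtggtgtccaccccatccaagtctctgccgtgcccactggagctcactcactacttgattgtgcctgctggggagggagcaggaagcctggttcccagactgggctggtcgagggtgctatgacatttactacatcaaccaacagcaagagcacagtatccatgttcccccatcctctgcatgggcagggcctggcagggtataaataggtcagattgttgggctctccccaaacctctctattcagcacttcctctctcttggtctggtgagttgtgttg
S100a6, chr3:90612644-90612943, plus strand: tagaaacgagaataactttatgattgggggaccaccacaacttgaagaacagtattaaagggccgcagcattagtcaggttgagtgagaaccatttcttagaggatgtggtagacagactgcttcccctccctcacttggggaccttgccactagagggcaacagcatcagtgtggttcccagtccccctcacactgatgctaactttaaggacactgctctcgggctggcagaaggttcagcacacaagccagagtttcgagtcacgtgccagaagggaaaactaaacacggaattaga
S100a11, chr3:93520246-93520545, plus strand: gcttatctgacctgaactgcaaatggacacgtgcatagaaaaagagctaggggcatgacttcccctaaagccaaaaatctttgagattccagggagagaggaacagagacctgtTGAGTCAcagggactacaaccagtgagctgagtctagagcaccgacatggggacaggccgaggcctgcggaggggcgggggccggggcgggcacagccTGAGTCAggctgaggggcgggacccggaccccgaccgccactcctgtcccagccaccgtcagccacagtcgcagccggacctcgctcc
Anxa2, chr9:69453433-69453732, plus strand: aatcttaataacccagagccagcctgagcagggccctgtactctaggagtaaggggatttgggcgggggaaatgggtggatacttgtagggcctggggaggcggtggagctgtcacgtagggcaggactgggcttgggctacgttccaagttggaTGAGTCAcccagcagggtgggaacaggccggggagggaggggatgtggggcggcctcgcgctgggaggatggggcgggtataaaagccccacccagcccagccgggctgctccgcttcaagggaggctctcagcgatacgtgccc
The matches in S100a11 were both TGAGTCA and began 136 and 38 bases before the start, and the TGAGTCA of Anxa2 began 95 bases before it. S100a16 had a TGAATCA, 192 bases before 1 of its 2 annotated starts. A match is a description of these letters, no match says only that they are not in this window, and binding was not measured.

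Afatinib lowered 7 of the 9 genes relative to DMSO and raised 0, while 21.5% of all genes tested were called lower and 21.2% higher. At an unadjusted p under 0.05 the counts were the same, 7 and 0, and by the DESeq2 Wald test they were 6 and 0. The median log2 fold change was -0.27 for the 9 genes and 0.00 for all genes. All these changes were small, between 1.12-fold for Anxa2 and 1.33-fold for S100a10. The comparison with DMSO shares its DMSO libraries with the comparison of c-Fos against the empty vector, so a high DMSO library raises one value and lowers the other.

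The largest falls were those of S100a10, at a log2 fold change of -0.41 ± 0.067 (adjusted p = 2.7e-04), and Anxa3, at -0.40 ± 0.060 (adjusted p = 1.2e-04). Anxa1 fell by 0.30 on the log2 scale (SE 0.058, adjusted p = 0.0011). Both afatinib libraries lay below both DMSO libraries in all 7 genes lowered, and also in S100a14, which was not called. For S100a10, Anxa3 and Anxa1 the call held when any of the 8 libraries was left out. S100a4 was at -0.33 ± 0.097 (adjusted p = 0.014), S100a11 at -0.27 ± 0.077 (0.012), S100a6 at -0.20 ± 0.065 (0.022) and Anxa2 at -0.17 ± 0.056 (0.025). None of these 4 calls held with every library left out in turn. The log2 fold change then ranged from -0.36 to -0.27 for S100a4 and from -0.19 to -0.12 for Anxa2. It ranged more widely for S100a6, from -0.26 to -0.11, and for S100a11, from -0.38 to -0.13. S100a4 was not called without afatinib replicate 1 (adjusted p = 0.085) or 2 (0.088) or without DMSO replicate 2 (0.13), nor by the DESeq2 Wald test (0.054). S100a6 was not called without afatinib replicate 2 (0.26), DMSO replicate 2 (0.32) or empty vector replicate 2 (0.057), and its log2 fold change was -0.11 without DMSO replicate 2 and -0.13 without afatinib replicate 2. S100a11 was not called without afatinib replicate 2 (log2 -0.13, adjusted p = 0.25) or DMSO replicate 1 (0.10). Anxa2 was not called without afatinib replicate 1 (0.11) or 2 (0.20), DMSO replicate 2 (0.25) or empty vector replicate 2 (0.076), nor with a replicate block (0.054). The number of genes called lower was 3 without afatinib replicate 2 and 4 without DMSO replicate 2.

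S100a14 and S100a16 did not pass the test with afatinib. The 95% interval of the log2 fold change ran from -0.41 to 0.14 for S100a14 and from -0.07 to 0.27 for S100a16, so a fall as large as that of Anxa1 was within the interval of S100a14 and outside that of S100a16. Whether either gene differs from the others in its response was not tested.

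UO126 lowered 6 of the 9 genes relative to DMSO and raised 0, while 14.7% of all genes tested were called lower and 13.9% higher. At an unadjusted p under 0.05 the counts were 6 and 0, and by the DESeq2 Wald test 5 and 0. The median was -0.25 for the 9 genes and 0.00 for all genes. Anxa1 was at -0.41 ± 0.058 (adjusted p = 2.1e-04) and S100a10 at -0.38 ± 0.067 (adjusted p = 9.9e-04). In all 6 genes lowered, and in Anxa2, which was not called, both UO126 libraries lay below both DMSO libraries. Anxa1 and S100a10 were called whichever library was left out. The others lowered were S100a11 at -0.33 ± 0.077 (adjusted p = 0.0058), S100a4 at -0.30 ± 0.097 (0.031), Anxa3 at -0.25 ± 0.060 (0.0073) and S100a6 at -0.25 ± 0.065 (0.012). Without DMSO replicate 2, Anxa3 (adjusted p = 0.099), S100a6 (0.18) and S100a4 (0.21) were not called and the number of genes lowered was 3. S100a11 was not called without DMSO replicate 1 (0.059). S100a4 also missed the threshold without DMSO replicate 1 (0.080), UO126 replicate 2 (0.13) and afatinib replicate 1 (0.055) or 2 (0.056), with a replicate block (0.051), with only the libraries compared (0.052) and by the DESeq2 Wald test (0.099).

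Anxa2, S100a14 and S100a16 did not pass with UO126. Anxa2 was at -0.04 with a 95% interval from -0.16 to 0.08, and the log2 fold change of Anxa1 with UO126 lay outside that interval. The interval reflects the spread of these libraries alone, which may be technical. Whether Anxa2 differs from Anxa1 in its response was not tested. S100a16 was at -0.07 (interval -0.24 to 0.10) and S100a14 at -0.13 (interval -0.40 to 0.15).

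**Figure D3:**
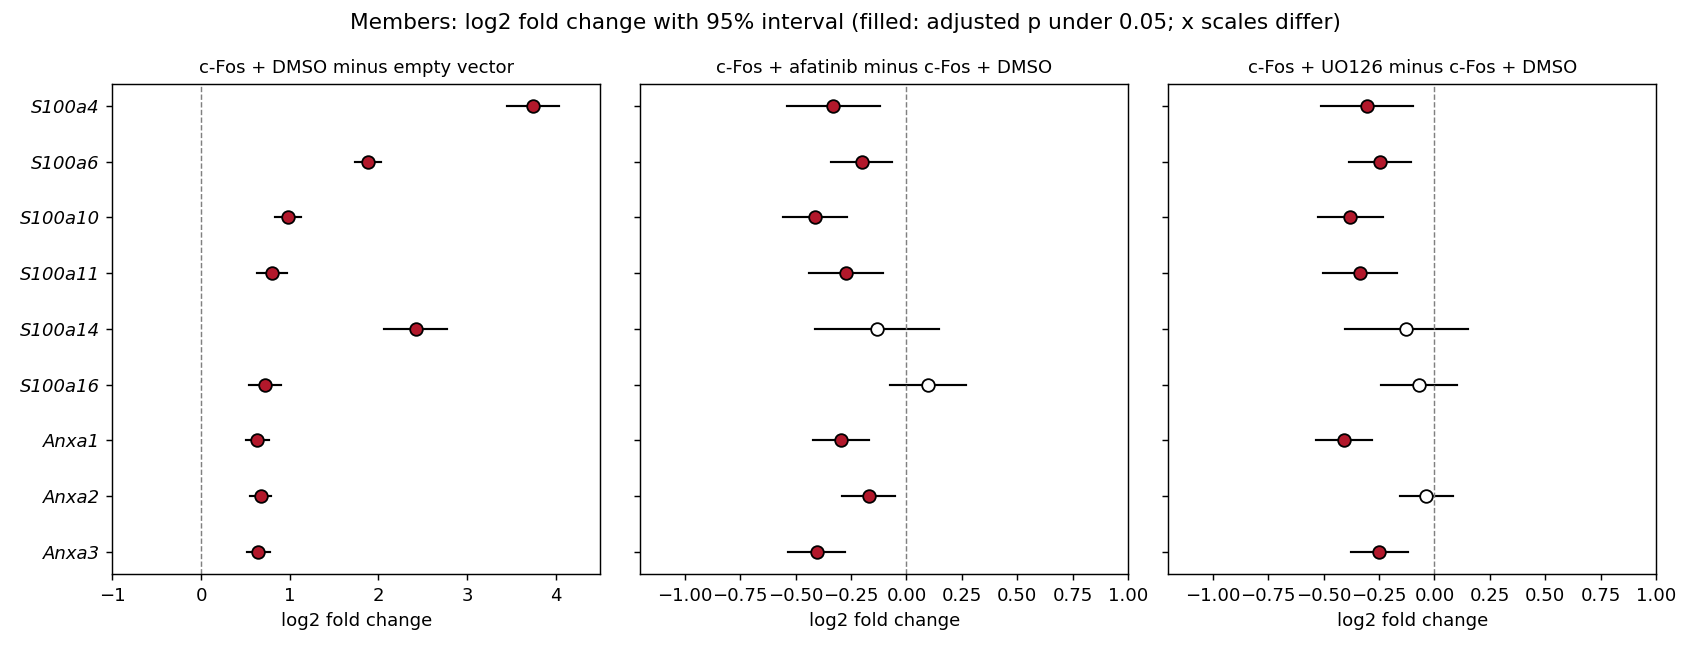
Log2 fold changes of the 9 genes tested with 95% intervals in 3 comparisons, with filled points for an adjusted p under 0.05. The left axis is wider than the other 2. All points are above 0 for c-Fos with DMSO minus the empty vector, and most lie between -0.41 and 0 for either inhibitor minus DMSO.

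The direct comparison of afatinib with UO126, given at different doses, called 0 of the 9 genes in either direction (edgeR), against 14.3% of all genes tested in either direction, 7.14% higher and 7.14% lower. At an unadjusted p under 0.05, 0 were higher and 2 lower with afatinib, Anxa3 (log2 -0.16 ± 0.060, adjusted p = 0.099) and Anxa2 (-0.13 ± 0.056, adjusted p = 0.13), and the DESeq2 Wald test called 0. Over the 9 genes the 95% intervals of the log2 fold change reached from -0.29 to 0.34. Without UO126 replicate 2, S100a16 was called higher (log2 0.25, adjusted p = 0.046) and Anxa3 lower (log2 -0.21, adjusted p = 0.027) with afatinib. Anxa2 was called lower than with DMSO for afatinib and not for UO126, but the test between the inhibitors did not pass.

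Neither inhibitor brought any of the 9 genes back to the level of the empty vector. All 9 were called higher than the empty vector with afatinib and all 9 with UO126, and 0 were lower. By the DESeq2 Wald test and at an unadjusted p under 0.05 the counts were again 9 and 0. Of all genes tested, 21.7% were called higher and 23.4% lower for afatinib against the empty vector, 45.1% in either direction, and 18.3% higher and 19.4% lower for UO126, 37.7% in either direction. S100a4 was still 10.6-fold (log2 3.41 ± 0.14) and 10.8-fold (3.44 ± 0.14) above the empty vector with afatinib and UO126. For S100a6 the log2 fold changes were 1.68 ± 0.067 and 1.64 ± 0.066, and for S100a14 they were 2.29 ± 0.16 with both. The smallest remaining differences were those of Anxa3 with afatinib and Anxa1 with UO126: Anxa3 was 1.18-fold above it with afatinib (log2 0.24 ± 0.060, adjusted p = 0.0051), and Anxa1 1.17-fold above it with UO126 (log2 0.23 ± 0.058, adjusted p = 0.0075). Anxa2 stayed further above it, at 0.50 ± 0.056 with afatinib and 0.63 ± 0.056 with UO126. Both calls held without any 1 library, with an adjusted p of at most 0.026 for Anxa3 and 0.046 for Anxa1.

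In the order of the 4 groups, DMSO came first for 8 of the 9 genes and the empty vector last for all 9. All these orders use the same 2 DMSO libraries. For S100a14 and Anxa2, DMSO was not called different from UO126, the next group (edgeR adjusted p = 0.50 and 0.66). For S100a16 afatinib came first, 62.2 ± 5.3 CPM against 58.1 ± 0.37 CPM with DMSO (SD, n = 2 each), which were not called different (adjusted p = 0.35). The 2 inhibitor groups were neighbours in the middle for S100a4, S100a6, S100a10, S100a11, S100a14, Anxa1, Anxa2 and Anxa3 and the difference between them passed the test in none.

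Other members of both families were read from a list of 19 further genes. Of the 9 further annexins 7 were tested, and all 7 rose with c-Fos and DMSO over the empty vector, where 21.5% of all genes did, with a median log2 fold change of 1.00. Anxa6, which links membranes to the actin cytoskeleton, was at 385 ± 4.5 CPM with c-Fos and DMSO and 134 ± 6.9 CPM with the empty vector (log2 1.52 ± 0.064, adjusted p = 7.3e-10). Anxa5, known for binding phosphatidylserine, was at 1.02 ± 0.070 and Anxa8 at 1.00 ± 0.055. With either inhibitor 1 of the 7 was lower than with DMSO and 0 higher, where 21.5% of all genes were lower for afatinib and 14.7% for UO126. It was Anxa5, at 355 ± 4.5 CPM with afatinib, 356 ± 23.0 CPM with UO126 and 475 ± 34.8 CPM with DMSO (log2 -0.42 ± 0.069 for each inhibitor, adjusted p = 2.7e-04 and 6.1e-04). Anxa8 was at 0.05 ± 0.054 with afatinib and 0.00 ± 0.054 with UO126, and Anxa6 at -0.15 ± 0.062 (adjusted p = 0.064) and -0.14 ± 0.062 (0.12), neither called.

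S100a3, a gene of the hair cuticle, and S100a7a, a relative of human psoriasin, rose with c-Fos and DMSO by 2.31 ± 0.18 and 3.24 ± 0.16 on the log2 scale from low levels. S100a7a stood at 9.28 and 10.2 CPM with afatinib, 15.8 and 14.1 CPM with UO126, 13.4 and 13.04 CPM with DMSO, and 1.52 and 1.26 CPM with the empty vector. The afatinib libraries of S100a7a were below all other c-Fos libraries: the gene was lower with afatinib than with DMSO (log2 -0.44 ± 0.11, adjusted p = 0.0068, and 0.076 without afatinib replicate 1) and lower than with UO126 (-0.62 ± 0.11, adjusted p = 0.0025). S100a3 was lower with UO126 than with DMSO (-0.55 ± 0.14, adjusted p = 0.011), a call that ended without DMSO replicate 2 (0.099) and by the DESeq2 Wald test (0.059). The third tested gene of that list, S100pbp, encodes a binding protein and is no S100 gene. It fell by 0.54 with c-Fos and DMSO (SE 0.087) and rose by 0.38 ± 0.088 with afatinib over DMSO.

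**Figure D4:**
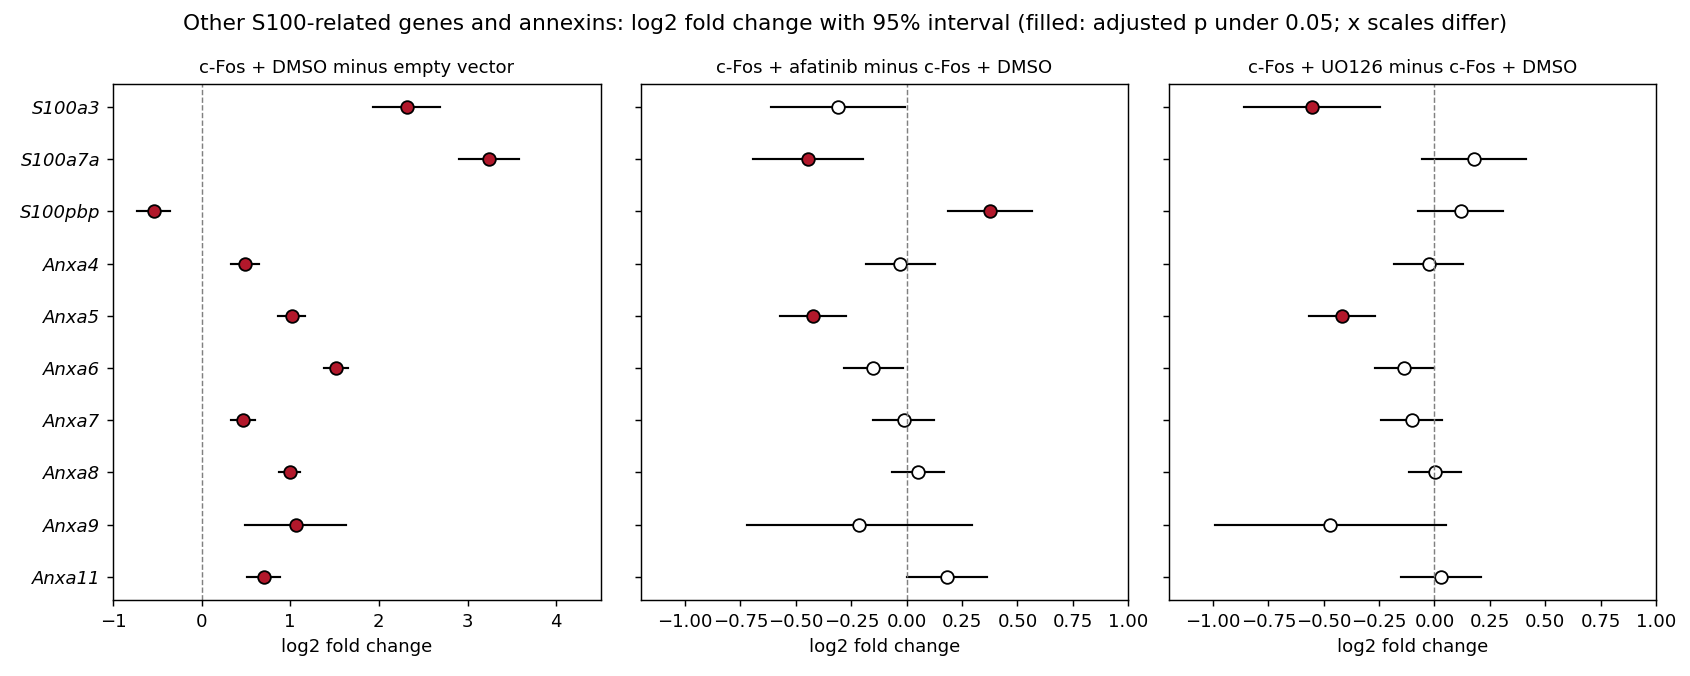
Log2 fold changes with 95% intervals of the 10 other S100-related and annexin genes tested, in the same 3 comparisons, with filled points for an adjusted p under 0.05. All 7 annexins lie above 0 on the left, and with the inhibitors Anxa5 is the annexin with filled points, at -0.42 in both.

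Receptors and binding partners of S100 proteins and annexins moved in both directions. With c-Fos and DMSO over the empty vector 7 of 15 tested were higher and 2 lower (background 42.2% called in either direction). Plat, the tissue plasminogen activator, stood at 49.5 ± 3.0 CPM with c-Fos and DMSO and 13.4 ± 1.1 CPM with the empty vector (log2 1.88 ± 0.085, adjusted p = 1.6e-09), whereas Fgf1, the growth factor that S100A13 helps to release, fell by 1.45 (SE 0.13). Tlr4, a receptor for several S100 proteins, was at 0.73 ± 0.21 (adjusted p = 0.029) and not called without either DMSO replicate (0.10 and 0.11) or either empty vector replicate (0.11 and 0.13). Against DMSO, 3 of the 15 were higher and 7 lower with afatinib, and 3 higher and 5 lower with UO126, where 42.7% and 28.6% of all genes were called in either direction. Trp53, which encodes p53, a partner of several S100 proteins, was at -0.86 ± 0.076 with afatinib and -0.52 ± 0.075 with UO126. Mdm2, its ubiquitin ligase, was higher with afatinib (log2 0.62 ± 0.075) and with UO126 (0.45 ± 0.075), and the difference between the inhibitors was not called (adjusted p = 0.13). Fgf1 was higher with UO126 (0.66 ± 0.13) and at 0.31 ± 0.14 with afatinib (adjusted p = 0.087). Tlr4 was at -0.68 ± 0.21 with afatinib (adjusted p = 0.037) and -0.85 ± 0.21 with UO126 (0.024), neither called without either DMSO replicate (0.13 and 0.15 for afatinib, 0.099 and 0.12 for UO126). Tlr4 was also not called without either empty vector replicate (0.074 and 0.080 for afatinib, 0.054 and 0.056 for UO126), and with afatinib not without afatinib replicate 1 (0.15) nor with a replicate block (0.061). Plat was higher with afatinib than with UO126 (log2 0.84 ± 0.074, adjusted p = 1.2e-05). The phospholipase gene Pla2g4a was lower with afatinib than with UO126 (-0.65 ± 0.067), as was Trp53 (-0.34 ± 0.076, adjusted p = 0.0089, and 0.14 without afatinib replicate 2).

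Genes of plasma membrane repair, a process in which annexins take part, rose with c-Fos and DMSO over the empty vector in 9 of 12 tested cases, with 0 lower, against 21.5% higher and 20.7% lower of all genes. Cav1, or caveolin-1, stood at 1120 ± 40.6 CPM with c-Fos and DMSO and 379 ± 8.1 CPM with the empty vector (log2 1.56 ± 0.11, adjusted p = 4.0e-06), and the calpain subunit genes Capns1 and Capn2 rose by 1.40 ± 0.066 and 1.30 ± 0.058. Against DMSO, 5 of the 12 were lower and 1 higher with each inhibitor, out of 42.7% of all genes called in either direction for afatinib and 28.6% for UO126. Cav1 was at -0.74 ± 0.11 with afatinib and -0.80 ± 0.11 with UO126, Ehd2, an ATPase of caveolae, at -0.53 ± 0.057 and -0.48 ± 0.057, and Myof, a ferlin, at -0.39 ± 0.058 and -0.44 ± 0.058. Ehd1, an ATPase of endosomes, was the only one of the 12 called between the inhibitors, lower with afatinib (-0.21 ± 0.061, adjusted p = 0.038), a call that held without UO126 replicate 1 and ended without each of the other 7 libraries in turn (0.059 to 0.34, with a log2 fold change of -0.13 without afatinib replicate 2), with only the 4 libraries compared (0.11) and with a replicate block (0.078). Of 11 other EF-hand calcium sensors tested, 3 were higher with c-Fos and DMSO over the empty vector and 1 lower, against 21.5% higher and 20.7% lower of all genes. Rcn1, a calcium-binding protein of the secretory pathway, fell by 0.46 (SE 0.073), while Calu, another such protein, rose by 0.34 ± 0.060. With either inhibitor 1 of the 11 was higher than with DMSO, Chp1 (0.39 ± 0.065 and 0.24 ± 0.065), and 1 lower, Calm3 (-0.30 ± 0.066 and -0.23 ± 0.066), the first of each pair for afatinib. Over all genes, the share called in either direction was 42.7% for afatinib and 28.6% for UO126. With UO126, Chp1 was not called without DMSO replicate 1 (adjusted p = 0.055) or 2 (0.079), and Calm3 not without DMSO replicate 2 (0.17).

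S100a4 is also used as a marker of fibroblasts, so the summed level of 8 fibroblast markers was read beside it. It lay between 8.27 and 9.09 CPM with c-Fos and DMSO, between 5.06 and 5.27 CPM with the empty vector, and between 7.11 and 10.8 CPM with the inhibitors. Lum and Thy1 had 0 counts in every library. Most of the sum with c-Fos and DMSO was Col1a2, at 6.41 ± 1.1 CPM against 0.845 ± 0.25 CPM with the empty vector. Dcn went the other way, at 0.745 ± 0.37 CPM against 2.55 ± 0.061 CPM. Of the 4 fibroblast markers tested, Col1a2 was the only one called higher and Dcn the only one called lower. The 8 leukocyte markers summed to between 8.10 and 9.57 CPM with the inhibitors, 6.80 and 6.14 CPM with c-Fos and DMSO and 6.21 and 5.41 CPM with the empty vector, and Tyrobp had 0 counts. Most of that sum was Cd68, at 4.83 CPM with c-Fos and DMSO and 5.54 CPM with the empty vector. Csf1r was called higher with c-Fos, at 1.99 and 1.05 CPM with DMSO and 0.130 and 0.218 CPM with the empty vector (adjusted p = 1.7e-04), and averaged 3.70 CPM with afatinib and 3.44 CPM with UO126, both called higher than with DMSO (adjusted p = 0.0014 and 0.0045). The part of such cells in the rise of S100a4 was not tested.

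Genes with a profile most like that of S100a4, the gene with the largest log2 fold change, were ranked by the root-mean-square difference of centred log2 CPM over the 8 libraries among 9885 genes of at least 5 CPM. The closest was Sprr1b, a cornified envelope precursor, at a difference of 0.15. Also among the 5 closest were the receptor gene Il18r1 at 0.23, the urokinase receptor gene Plaur at 0.24 and the proton pump gene Atp6v0a4 at 0.25. For Anxa1, the gene with the smallest rise, the closest were Hsd17b12, an enzyme of fatty acid elongation, at 0.030 and Rbms1, an RNA-binding protein, at 0.037. Rnf144b at 0.041, Ezr, which encodes the membrane-cytoskeleton linker ezrin, at 0.044 and Kazn at 0.049 followed. These are descriptions of likeness over 8 libraries of 4 groups.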

How the data were processed

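Messenger RNA of 8 libraries was sequenced. Per the labels' protocols, the RNeasy kit was used for RNA and the TruSeq RNA kit from Illumina for libraries, which carry no strand mark. Per the series design text, the authors aligned reads with TopHat and counted them with HOMER; per the submitters' processing notes the build was mm9 and DESeq2 was also used, with no versions or role given. The deposited values are expected counts per gene symbol, not normalized, in steps of 0.5. They were rounded to whole numbers. The 26 entries whose symbols had turned into dates (at most 0.246% of a library) were left out. The ribosomal entry Rn45s held 1.62 to 4.08% of counts and was kept. The deposited length per entry was used for levels per kb.

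In R 4.3.3 with edgeR 4.0.16, genes passing filterByExpr (minimum count 10, minimum total 15) were scaled by TMM. One model over the 8 libraries, with the 4 groups as its terms and 4 residual degrees of freedom, gave the robust quasi-likelihood test; p-values were two-sided and Benjamini-Hochberg adjusted over 12879 genes, and a gene was called under 0.05. Standard errors come from the F statistic and the 95% intervals from the test's degrees of freedom. CPM use scaled library sizes. The procedure was tested on simulated data. Genes named from a list are the called ones with the largest changes and at least 5 CPM, up to 3 per list and comparison; some genes that this rule names are not reported here. The genes described and the lists were chosen with earlier results of these data known. Alternatives were DESeq2 1.42.0 size factors and Wald test, other low-count filters, only the libraries compared, a replicate block, no robust estimation, adjusted p under 0.01, and each library left out.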

Additional observations from a re-analysis of the deposited data

How the results depend on the processing

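The calls of c-Fos with DMSO, with afatinib and with UO126 above the empty vector kept 9 of 9 genes under every alternative run. Of 810 pairs of a gene of the 10 with a comparison and an alternative, 772 kept direction and side of the threshold, 25 lost the call, 2 gained one and 11 changed sign, all of the last in values that were not called. For other genes named from the lists, 1020 of 1050 pairs kept the call and 30 lost it. Sign changes came with libraries left out: afatinib against UO126 ranged from -0.17 to 0.19 for S100a14, -0.10 to 0.062 for S100a4, -0.084 to 0.027 for S100a10 and -0.061 to 0.20 for S100a11, and UO126 against DMSO from -0.15 to 0.021 for S100a16, -0.32 to 0.063 for S100a14 and -0.061 to 0.0024 for Anxa2 (log2 fold changes). Genes called lower of the 9 numbered 3 for afatinib against DMSO at an adjusted p under 0.01, 3 to 7 with libraries left out, and 3 to 6 for UO126; for afatinib against UO126 they were 0 to 1, and 0 to 1 were higher. The cause was not tested.

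Over all genes, with libraries left out, genes lower numbered 1661 to 3085 for c-Fos with DMSO, 1953 to 3232 for afatinib and 1476 to 2452 for UO126 against the empty vector. Against DMSO 1692 to 3205 were lower with afatinib, and with UO126 913 to 2051 were higher and 968 to 2063 lower. Afatinib against UO126 gave 391 to 1316 higher and 307 to 1102 lower, and 481 and 505 with only the 4 libraries compared. Between same-numbered libraries, correlations of deviations from group means ran from -0.21 to 0.12 over 6 pairs of groups. With 2 libraries per group, these values cannot show whether a replicate number marks a shared culture or day. A replicate block left 6 of 9 genes lower for afatinib and 5 for UO126 against DMSO and changed no other count of the 9. Size factors of DESeq2 moved the median of all genes by at most 0.018 (log2). S100a13 and most of the other S100 genes listed had too few counts to be tested.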

Other observations

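Both pairs of known binding partners among the genes described were also read as ratios of their levels per transcript length, in each library. S100a10 over Anxa2 was 0.909 and 0.898 with afatinib, 0.875 and 0.811 with UO126, 1.04 and 1.10 with DMSO, and 0.845 and 0.877 with the empty vector. The DMSO libraries were thus the highest of the 8, and the ranges of the other groups lay together below them. S100a11 over Anxa1 was 1.63 and 1.31 with afatinib, 1.47 and 1.56 with UO126, 1.502 and 1.38 with DMSO, and 1.26 and 1.31 with the empty vector. The afatinib libraries differed by more than the means of the groups did. These pairs were chosen as known partners after the levels had been seen, no test was made, and messenger RNA ratios say nothing of the proteins.

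S100a2, which is in none of the lists, was looked up after its values were seen: it had 3 and 4.5 counts with afatinib, 4.5 and 1.5 with UO126, 8.5 and 9 with DMSO, and 2.5 and 0 with the empty vector, too few to be tested.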
